A study of Caenorhabditis elegans with 2 samples.

Results

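The genes described here encode molecular chaperones and cyclophilins of the nematode Caenorhabditis elegans, and were examined for binding of the transcription factor CEH-48 at their promoters. They are the 81 protein-coding genes, of 19973 in the Ensembl WBcel235 annotation, whose names consist of hsp, dnj, cct, pfd or cyn and a number. The families hold 22 hsp genes, 29 dnj genes, 8 cct genes, 6 pfd genes and 16 cyn genes. The 81 genes carry 79 names, because hsp-16.1 and hsp-16.48 each name 2 near-identical genes. The families were chosen by name after IDR regions and their signal at such genes had been seen in these data. The counts, signals and positions below are therefore a description with no test.

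Chromatin immunoprecipitation with sequencing (ChIP-seq) was done on 2 biological replicates of whole late embryos, pooled over males and females and taken 3.5 hours after synchronization by egg bleaching. Both replicates are of strain OP631, with the allele unc-119(tm4063) III and the insertion wgIs631, which gives CEH-48 a GFP-FLAG tag at its C-terminal end, and they form 1 group. The description in the labels names an antibody against GFP, whereas their antibody tag reads ceh-48, and the promoter that drives the transgene is not given in the sources used here. No untagged strain was analysed here, depth is unknown because the region lists hold no read numbers, and the cells in which a region was bound cannot be told apart in whole embryos.

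Chaperones help other proteins to fold. HSP70 proteins (several hsp genes) bind unfolded stretches in cycles of ATP hydrolysis that J-domain proteins (dnj genes) start and nucleotide exchange factors end, while HSP90 acts on partly folded clients and small heat shock proteins hold unfolded ones. The cct genes encode subunits of the ring-shaped chaperonin CCT, which folds actin and tubulin, and the pfd genes encode subunits of prefoldin, which delivers these chains to it. Cyclophilins (cyn genes) turn peptide bonds before proline residues between their cis and trans forms. CEH-48 is a homeodomain factor of the ONECUT (cut) class, known in this animal as a protein of neurons throughout the nervous system.

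The 100 bp around the summit, the base of highest signal in a bound region, showed different sequence types among the bound members. The following examples are from the WBcel235 genome (the ce11 coordinates), on the forward strand, 5′ to 3′, with ATCGAT, a core sequence bound by cut-class homeodomains, and GCGC in capitals. For dnj-8 (chrII:6598214-6598313, upstream of its 5′ end) and cyn-3 (chrV:15189811-15189910, upstream) the window held ATCGAT. For hsp-1 (chrIV:17278540-17278639), hsp-60 (chrIII:1619070-1619169), dnj-9 (chrII:4851784-4851883) and dnj-14 (chrX:4712010-4712109), all between genes, it held GCGC 2 or 3 times and no ATCGAT. For cct-7 (chrV:1871861-1871960), the cct gene with the highest signal, it held neither.
dnj-8: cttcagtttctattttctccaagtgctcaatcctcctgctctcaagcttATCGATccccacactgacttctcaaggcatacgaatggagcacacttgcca
cyn-3: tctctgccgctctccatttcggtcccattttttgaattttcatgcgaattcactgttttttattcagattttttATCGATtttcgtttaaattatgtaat
hsp-1: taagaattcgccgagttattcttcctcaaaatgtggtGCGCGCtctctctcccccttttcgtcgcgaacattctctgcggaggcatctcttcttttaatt
hsp-60: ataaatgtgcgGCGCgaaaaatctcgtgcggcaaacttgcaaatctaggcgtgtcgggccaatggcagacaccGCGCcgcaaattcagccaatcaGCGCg
dnj-9: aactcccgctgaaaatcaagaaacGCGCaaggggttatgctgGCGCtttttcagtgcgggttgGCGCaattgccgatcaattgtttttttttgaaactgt
dnj-14: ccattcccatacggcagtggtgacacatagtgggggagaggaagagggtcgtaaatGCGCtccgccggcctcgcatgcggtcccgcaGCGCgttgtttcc
cct-7: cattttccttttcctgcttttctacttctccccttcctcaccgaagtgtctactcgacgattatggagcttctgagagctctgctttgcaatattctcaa

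A gene was called bound when at least 1 summit of the authors' optimal IDR list lay between 1000 bp upstream and 200 bp downstream of its 5′ end. IDR stands for irreproducible discovery rate, a measure of how alike regions rank in paired lists. The list holds 1840 regions, and which pairs of lists it rests on is not stated in the sources. Each bound member had the same rank by signal in it as in the pooled list described below. A bound gene need not rank high in both replicates, whose values are given below. Of the 81 members 21 were bound (25.9%, exact 95% interval 16.8 to 36.9%), where 6.29% of all protein-coding genes were bound, and the share of all genes is the background to which the count belongs. By family, 10 of 29 dnj genes (34.5%, 17.9 to 54.3%), 3 of 8 cct genes (37.5%, 8.52 to 75.5%), 5 of 16 cyn genes (31.25%, 11.0 to 58.7%) and 3 of 22 hsp genes (13.6%, 2.91 to 34.9%) were bound. None of the 6 pfd genes was bound, an interval of 0 to 45.9%. The intervals overlap between all families, which is no test between them, and no order of the families is read from them. They cover the counting of genes only and treat genes as independent. The choice of the families after regions had been seen is not allowed for.

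The count was also taken with other settings. From 500 bp upstream to 100 bp downstream 19 members were bound (all protein-coding genes 4.77%), and 22 from 2000 bp upstream to 500 bp downstream (8.53%). At the 5′ end of any transcript 23 were bound (6.8%). In the 920 IDR regions of highest signal 8 were (3.21%), namely hsp-1, hsp-60, dnj-1, dnj-8, dnj-19, dnj-29, cct-7 and cyn-12.

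**Figure D1:**
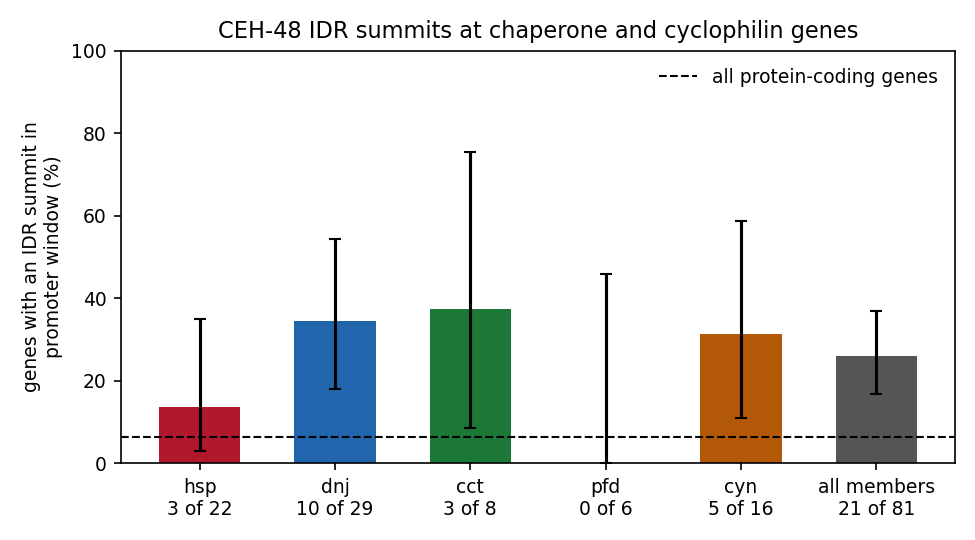
Share of genes with an IDR summit in the promoter window, in percent on the y axis, for each family and for all members. Error bars are exact 95% intervals, and the dashed line is the share of all protein-coding genes, 6.29%. The share runs from 0 of 6 pfd genes to 3 of 8 cct genes.

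The pooled list of 30000 regions mixes peaks with background, and regions below the IDR threshold are read here only as weaker signal. In it 58 members (71.6%) had a summit in the window, where 35.7% of all protein-coding genes did. This leaves 37 members with a region below the IDR threshold only and 23 with no region. All 8 cct genes, 13 of 16 cyn genes, 5 of 6 pfd genes, 21 of 29 dnj genes and 11 of 22 hsp genes had a region. Among the bound members the signal, the authors' peak caller value in the pooled data, ran from 85.3 to 309 with a median of 122. The median over all 1256 bound genes was 142, and the IDR list spanned 85.2 to 1044. Ranks of the bound members ran from 223 to 1834.

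**Figure D2:**
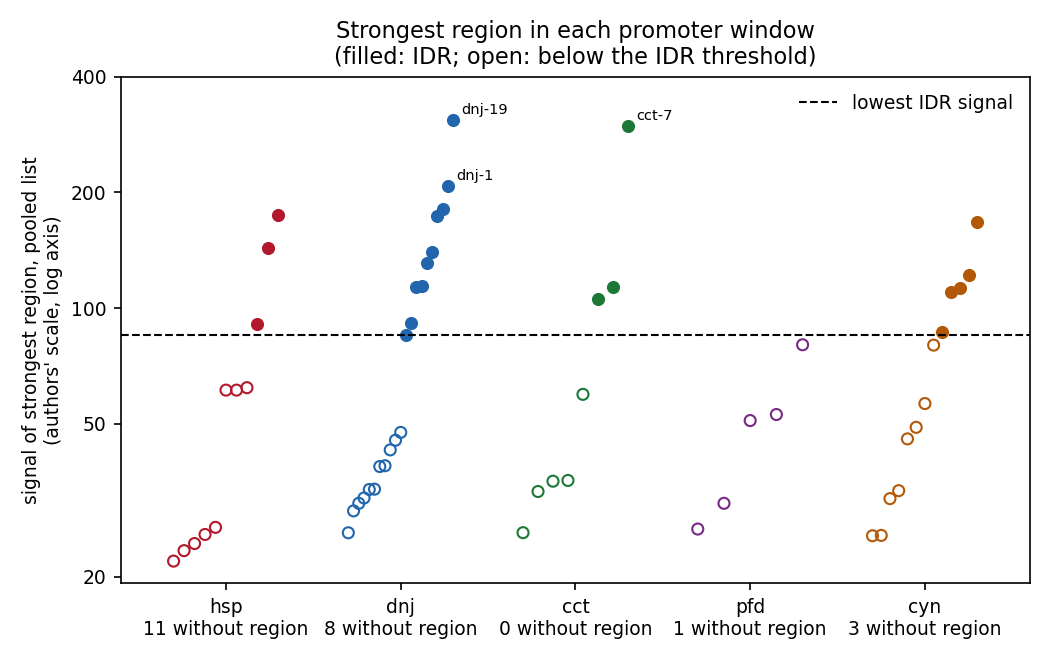
Signal of the strongest region in the promoter window of every member that had one, on a log axis, by family, with filled points for regions of the IDR list and open points for regions below its threshold; the dashed line is the lowest IDR signal, 85.2. The bound members lie between 85.3 and 309 and the others between 21.9 and 80.3. Each bound member had the same rank in both lists, so this split follows from how genes were called bound.

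Of the hsp genes, 3 were bound, each a chaperone of a different kind. At hsp-1, the constitutive cytosolic HSC70, the summit lay 369 bp upstream of the 5′ end, between genes, with a signal of 175 in the pooled data, 62.7 in replicate 1 and 116 in replicate 2. Its rank was 670 in the pooled data, and the replicates placed it at 463 and 788. At hsp-60, the mitochondrial chaperonin, the summit lay 622 bp upstream, with a pooled signal of 143 and values of 29.3 and 109.7 in replicates 1 and 2. For hsp-110, an HSP70-related exchange factor, it lay 223 bp upstream, with a pooled signal of 91.1 and replicate values of 23.3 and 68.0. Only hsp-1 and hsp-60 were among the 1840 regions of highest signal in both replicates' own lists. Signals of different lists are not on a common scale, so ranks are the values to compare.

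In the promoter window, the HSP70 genes hsp-3, hsp-4, hsp-6 and hsp-70 and the HSP90 gene hsp-90 were below the threshold. The endoplasmic reticulum HSP70 (BiP) gene hsp-3 had a pooled signal of 62.1 (rank 3001) at position -23 bp relative to the 5′ end, with a signal of 59.1 in replicate 2 and no region within 100 bp in replicate 1. Its paralog hsp-4 had 26.9, at rank 18605. The mitochondrial HSP70 gene hsp-6 had 21.9 and the cytosolic HSP90 gene hsp-90 had 23.4, both near the lower end of the list. The hsp-70 gene had 24.4, at rank 22194, with 15.5 in replicate 2 and no region within 100 bp in replicate 1. The intron of hsp-90 held an IDR region with a signal of 93.9 outside the window, 823 bp past the 5′ end, and hsp-90 was bound when the 5′ end of any transcript was allowed. Among the small heat shock protein genes, the divergent pair hsp-16.2 and hsp-16.41 shared a region with a signal of 61.2, at rank 3079, seen in replicate 2 at 50.7 and not in replicate 1. In the window no region was listed for hsp-12.1, hsp-12.2, hsp-12.3, hsp-12.6, hsp-17, hsp-43, hsp-75 or the 4 genes named hsp-16.1 and hsp-16.48. No source used here says how reads from the near-identical hsp-16 copies were handled, so a missing region there is uncertain.

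The dnj family, the largest with 29 genes, held the most bound genes by count (10) and the highest signal of any member. At dnj-19, a cytosolic J-domain protein of the DNAJA type, the summit lay 370 bp upstream with a pooled signal of 309, at rank 223, and replicate values of 65.4 and 253. At dnj-12, another DNAJA-type gene, it lay 66 bp upstream with 85.3, the lowest signal of any bound member, and replicate values of 11.6 and 70.6. The first of these genes ranked 412 and 163 in the replicates, while dnj-12 ranked 18492 in replicate 1 and 1559 in replicate 2.

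At dnj-13, a DNAJB-type J protein that works with HSC70 and HSP110, the summit lay 181 bp upstream, inside an intron of dhgd-1, with a pooled signal of 114.5 and replicate values of 27.9 and 87.3. At dnj-14, the cysteine string protein of synaptic vesicles, the summit lay 312 bp upstream with a pooled signal of 131 and replicate values of 51.1 and 72.9. At dnj-29, which encodes a Sec63-type protein of the endoplasmic reticulum membrane, it lay 152 bp upstream with 173 and values of 68.3 and 100.5. All of these ranked within the top 1840 of both replicates. The remaining bound J-protein genes are given by position and value alone. For dnj-1 the summit was 326 bp upstream with a pooled signal of 208 and replicate values of 39.7 and 165. For dnj-8 it was 184 bp upstream with 181, and values of 32.1 and 143. The ATCGAT of its printed window lay 1.5 bp from the summit, the closest of any member. For dnj-28 it was 110 bp upstream with 139.6, and values of 41.2 and 97.6. At dnj-9 the summit was 222 bp upstream with 113, and values of 18.3 and 92.8. At dnj-5, it was 833 bp upstream with 91.7, and values of 26.8 and 63.0. Of these, dnj-5 and dnj-9 missed replicate 1's top regions, at ranks 1964 and 5222.

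Of the dnj genes without an IDR summit, 11 had a weaker region. The highest signals were 47.5 for dnj-23, 45.3 for dnj-27, 42.7 for dnj-7 and 38.9 for dnj-10, at ranks 5069 to 8094. They include an endoplasmic reticulum J protein with disulfide reductase domains (dnj-27) and a mitochondrial one (dnj-10). The windows of dnj-3, dnj-4, dnj-16, dnj-17, dnj-18, dnj-21, dnj-26 and dnj-30 held none. At dnj-3, dnj-4, dnj-18 and dnj-30 a gene on the same strand ended 82 to 113 bp upstream. Whether such a window holds the promoter of its gene cannot be told from these data. For dnj-16 an IDR region with a signal of 168 lay just outside, 275 bp downstream of the 5′ end in an intron, and the gene was bound with the wider window or the 5′ end of any transcript.

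The chaperonin genes all had a region, and 3 of the 8 subunit genes were bound. At cct-7 the summit lay 335 bp upstream with a pooled signal of 298, rank 247, and replicate values of 82.4 and 215. The replicates ranked it at 244 and 256. At cct-8 it lay 449 bp upstream with 114 and values of 19.2 and 91.7, and at cct-1 248 bp upstream with 105 and values of 27.3 and 81.7. Both missed replicate 1's top regions, so cct-7 was the only cct gene in the top regions of both. The other subunits had 59.6 (cct-6), 35.6 (cct-3), 35.4 (cct-4), 33.3 (cct-5) and 26.0 (cct-2), from rank 3224 down to 19774. The strongest regions in the 8 windows thus ran from 26.0 to 298, but a region in a window need not belong to the cct gene. That of cct-3 lay at -997 bp, by the edge of the window. The region of cct-4 lay at -755 bp, whereas a gene on the opposite strand began 459 bp upstream.

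The prefoldin genes had regions below the threshold, apart from pfd-3, for which none was listed. The highest was pfd-1, with 80.3 at rank 2011, at position -365 bp, and replicate values of 10.6 and 68.5. It ranked 22380 in replicate 1 and 1637 in replicate 2. Next were pfd-2 with 52.8 (24.3 and 34.5 in the replicates) and pfd-5 with 51.0. The region of pfd-4, at 31.0, lay also in the windows of dnj-2, B0035.3 and B0035.22, and that of pfd-6 had 26.6.

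Among the cyclophilin genes, 5 were bound, 4 upstream and 1 just inside the gene. At cyn-12 the summit lay 138 bp upstream with a pooled signal of 167 and replicate values of 60.8 and 106. It ranked 498 in replicate 1 and 877 in replicate 2. For cyn-16 the summit lay 39 bp downstream of the 5′ end, in a coding exon, with 122 and values of 29.4 and 93.6. At cyn-3 it lay 66 bp upstream with 113. Replicate 2 had 81.5 there, and no region of replicate 1 lay within 100 bp. For cyn-1 it lay 137 bp upstream with 110.3 and values of 22.98 and 83.4. At cyn-6, a secreted cyclophilin, it lay 460 bp upstream, in the 3′ UTR of the neighbouring tpst-2, with 86.7 and values of 20.8 and 63.4. Thus cyn-12 and cyn-16 were in the top regions of both replicates, and the other 3 in those of replicate 2 only.

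Of the cyclophilin genes below the threshold, cyn-4 (also known as mog-6, for germline sex determination) had 80.1 at rank 2018, with 91.5 in replicate 2 and no region in replicate 1 within 100 bp. The next were cyn-5 with 56.4, cyn-10 with 48.9 and cyn-7 with 45.7. The region of cyn-7, at -266 bp, matched no region within 100 bp in either replicate, though replicate 1 had a region at -391 bp with a signal of 33.9, at rank 1309. The windows of cyn-8, cyn-11 and cyn-17 held no region. At the threshold, dnj-12 (85.3) and cyn-6 (86.7) lay just inside and pfd-1 (80.3) and cyn-4 (80.1) just outside, so the line between called and uncalled genes runs through small differences of signal.

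**Figure D3:**
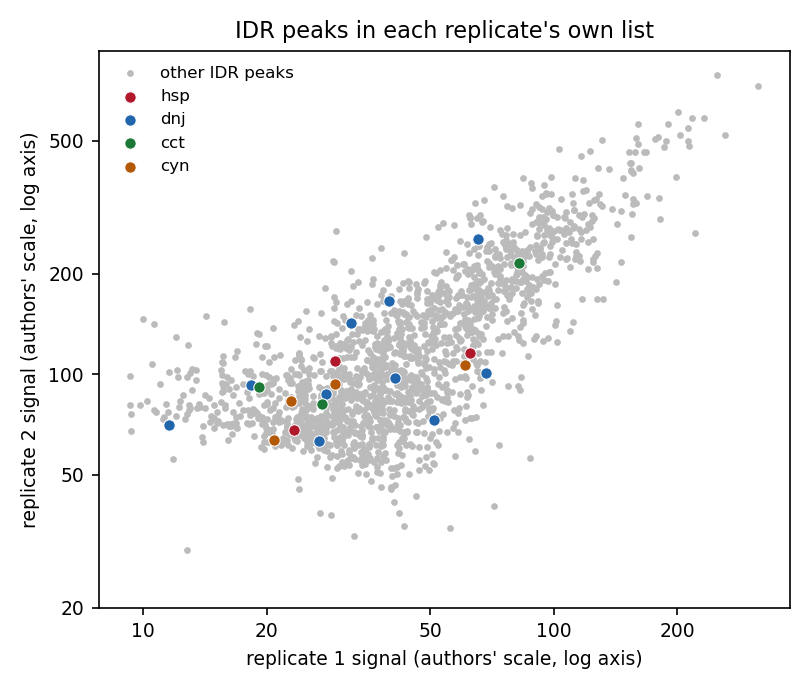
Signal in replicate 1 (x axis) and replicate 2 (y axis) of each IDR region with a match within 100 bp in both replicates' own lists. Both axes are log axes in the authors' units, with members coloured by family and other regions grey. Regions without a match in a replicate are not drawn. Of the 21 member regions 20 are drawn, since cyn-3 had no region of replicate 1 within 100 bp, and they run from 11.6 to 82.4 in replicate 1, whose list reaches 315.

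All 21 member summits were in the 1840 regions of highest signal in replicate 2, and 12 were in those of replicate 1 (57.1%). For the 922 promoter summits of the IDR list that belonged to no member, the shares were 92.3% in replicate 2 and 74.6% in replicate 1. In both replicates' top regions lay 12 of the 21 member summits (57.1%) and 69.0% of the other promoter summits. As a share of genes this is 12 of all 81 members (14.8%), where it was 4.41% of all protein-coding genes. The 12 were hsp-1, hsp-60, dnj-1, dnj-8, dnj-13, dnj-14, dnj-19, dnj-28, dnj-29, cct-7, cyn-12 and cyn-16. Taken alone, replicate 2's top regions held a summit in the windows of 23 members (all protein-coding genes 6.33%) and replicate 1's in those of 15 (5.71%). A replicate's depth was not available, and its part in the difference between lists was not tested.

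A summit can lie in the windows of several genes. For 12 of the 21 bound members (57.1%) the window of another protein-coding gene also held the summit, where this was so for 51.4% of all 1256 bound genes. Counted per summit, the share was 33.2% of the 922 promoter summits of no member, but a shared summit can be reached through either of its genes. At each of the 12 member summits the other gene lay on the opposite strand. All 3 cct genes, 7 of 10 dnj genes and 2 of 3 hsp genes shared a summit, and 0 of 5 cyn genes did. The neighbouring gene taken was the nearest one upstream, or a gene overlapping the 5′ end where there was one, as at hsp-70, hsp-90 and dnj-13. It was on the opposite strand for 47 of the 81 members (58.0%), for 8 of 8 cct genes and for 46.2% of all protein-coding genes. These shares are therefore not counts of divergent pairs alone. A summit between divergent 5′ ends cannot be given to either gene from these data.

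At dnj-19 the summit lay 26 bp from the 5′ end of nhr-47, a nuclear receptor gene, and 370 bp from that of dnj-19. At cct-7 it lay 104 bp from T10B5.4. At cct-1 the summit was 172 bp from mig-5, a Dishevelled gene of Wnt signalling, and at cct-8 172 bp from Y55F3AR.2. In these 4 cases the partner was nearer than the member. The same held for hsp-60, with Y22D7AL.10 at 191 bp, for hsp-110, with the proteasome subunit gene rpn-3 at 221 bp, and for dnj-14, with glit-1 at 219 bp. The member was nearer at dnj-12 (mtx-1, a metaxin gene, at 426 bp), dnj-1 (B0035.15 at 458 bp), dnj-13 (F54D5.9 at 692 bp), dnj-28 (supr-1 at 464 bp) and dnj-29 (ndua-2, a gene of respiratory complex I, at 376 bp, and fld-1 at 934 bp). When each summit was given only to the gene with the nearest 5′ end, 14 of the 21 members remained bound and no cct gene did, where 4.64% of all protein-coding genes were bound.

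**Figure D4:**
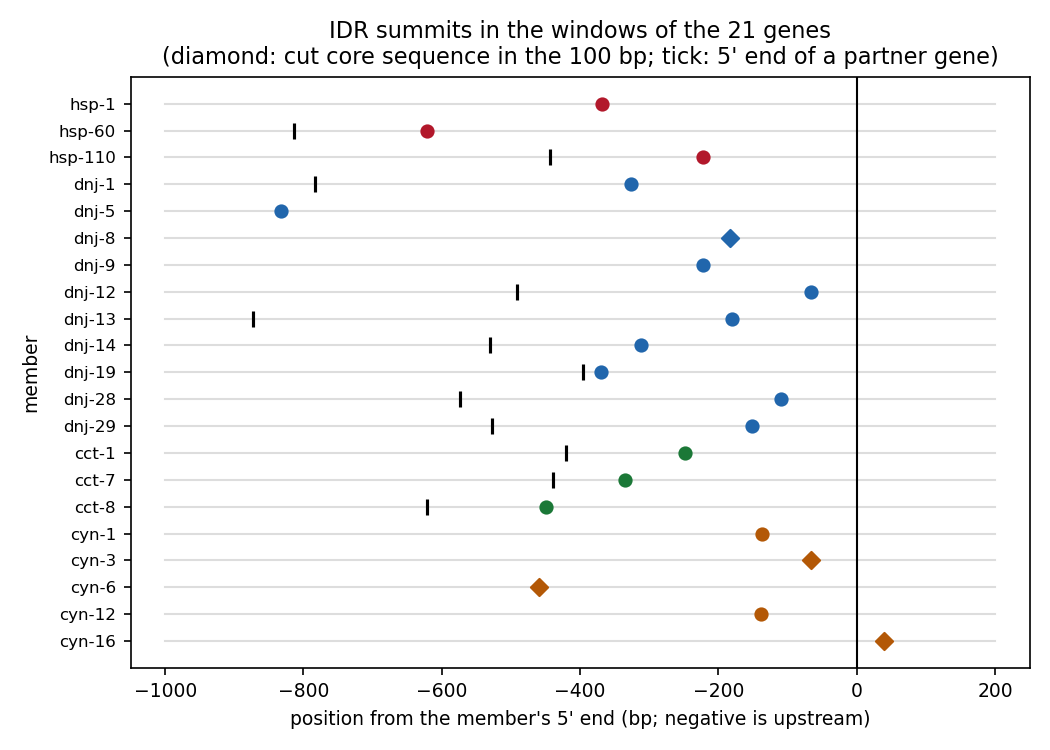
Position of the IDR summit of each bound member relative to the member's 5′ end, in bp on the x axis (negative is upstream), with the 5′ ends of genes that share the window. Of 21 summits 20 lie upstream, at 66 to 833 bp, and that of cyn-16 lies 39 bp downstream, while the 5′ end of fld-1, 1086 bp from that of dnj-29, falls off the axis.

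The median distance from summit to 5′ end was 223 bp for the members and 240 bp for all bound genes. Of the member summits 18 lay between genes, 1 in an intron, 1 in a 3′ UTR and 1 in a coding exon. By chromosome, 6 of 16 members on II were bound (all genes there 6.09%), 4 of 13 on IV (5.70%), 4 of 18 on V (3.16%), 3 of 13 on I (9.62%), 3 of 15 on III (9.66%) and 1 of 6 on X (6.19%). None lay within 200 bp of a tRNA gene, and 3 (14.3%) lay on repeat-masked bases, against 23.8% of the other promoter summits.

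ATCGAT reads the same on both strands. In the 100 bp centred on the summit it occurred at 4 of 21 member summits (19.0%, exact 95% interval 5.45 to 41.9%), at 38.7% of the 922 promoter summits of no member and at 44.2% of all IDR summits. The 4 were dnj-8, cyn-3, cyn-6 and cyn-16, so 3 of 5 cyclophilin summits, 1 of 10 J-protein summits and 0 of the 6 hsp and cct summits held it. In windows of the same size 500 bp to each side it occurred in 1 of 42 for the members (2.38%) and in 6.45% for the others. In replicate 1's top regions alone, without replicate 2, the share was 1 of 15 (6.67%, exact 95% interval 0.169 to 31.9%). No share for the other promoter regions of that list was taken. With ATTGAT allowed on either strand, the member summits with a match were 7 (33.3%), and the others 59.4%.

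GCGC, also its own reverse complement, counted with overlapping copies and chosen after the sequences had been seen, occurred at 12 member summits (57.1%) and 47.7% of the others. In the flanking windows the shares were 16.7% and 12.3%. By family GCGC was at 7 of 10 dnj, 2 of 3 hsp, 1 of 3 cct and 2 of 5 cyn summits. The printed windows of hsp-1, hsp-60, dnj-9 and dnj-14 are of this kind. At 1 summit (cyn-6) both occurred and at 6 neither did, cct-7 among them. The median GC content was 47% in both sets, and 37% for the cyclophilin summits, from 29 to 63% over all members. The part of base composition in these shares was not tested.

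**Figure D5:**
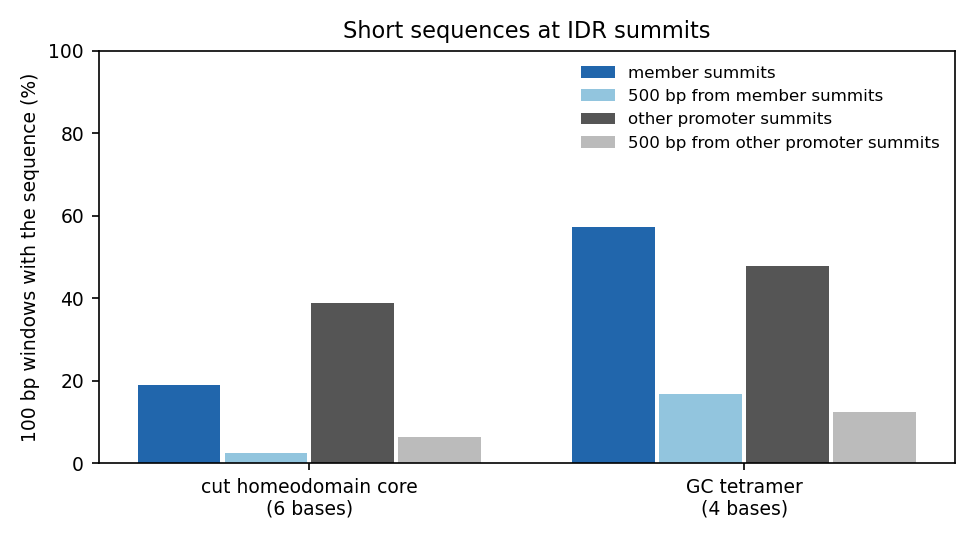
Percentage of summit windows (100 bp) and of flanking windows with the cut homeodomain core and with the GC tetramer, for the 21 member summits and the 922 other promoter summits. The core is at 19.0% of member and 38.7% of other summits, and the tetramer at 57.1% and 47.7%.

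Other genes of protein folding and of its stress responses, from lists chosen with earlier results of these data known, held 9 bound genes of 37, where 6.29% of all protein-coding genes were bound. In the pooled list 29 had a region, where 35.7% of all genes did. The 37 include 12 regulators of stress responses, which are not folding proteins themselves. Of 10 co-chaperones of HSP70 and HSP90, 4 were bound, namely the ubiquitin ligase gene chn-1 (126.5), bag-1 (161), the HOP gene sti-1 (92.1) and the p23 gene daf-41 (87.3). Of 8 FK506-binding prolyl isomerases, which catalyse the reaction of cyclophilins by another fold, fkb-6 (325, rank 195) and fkb-7 (175) were bound. The summit of fkb-6 lay 503 bp upstream and had a higher signal than any member. Of 7 endoplasmic reticulum genes, for lectin chaperones, the HSP90 protein GRP94 and disulfide isomerases, pdi-3 (146) was bound. Of 12 stress-response regulators, hsb-1 (86.7), which encodes a negative regulator of the heat shock factor HSF-1, and atf-6 (106), which encodes a sensor of endoplasmic reticulum stress, were bound. The gene of HSF-1 itself, hsf-1, had 40.5, below the threshold. The summits of chn-1, daf-41, fkb-6, fkb-7, pdi-3 and hsb-1 lay also in the window of another protein-coding gene. Those of bag-1, sti-1 and atf-6 did not. For hsb-1 replicate 2 had 73.4 and replicate 1 no region within 100 bp.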

How the data were processed

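Peaks were called by the authors on each replicate and on both pooled, with an IDR list made from these, per the deposited read-me files. No source used here names the aligner, the peak caller or the IDR threshold. The signal values (column 7) are the authors' deposited values on a scale that is not stated, and served to rank and describe the regions of 1 list. Labels gave the replicate numbers. Nothing says how the 2 biological replicates were grown.

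The ce11 lists were joined to the Ensembl WBcel235 release 115 annotation, and each gene was taken at its annotated 5′ end. Summit positions are the region start plus the summit offset. A replicate's region was matched where its summit lay within 100 bp of the IDR summit. Depth is unknown, so precision is given only as exact intervals (Clopper-Pearson, 95%) for counts of genes or summits. Sequences came from the RefSeq copy of WBcel235. The members and lists were chosen with earlier results of these data known, so no test was run. The named genes are every bound member, every cct and pfd gene and the 4 highest unbound members of each family. Also named are bound genes of the other folding lists, sharing genes and members next to the threshold. Members with no region, hsp-6, hsp-70, hsp-90, cyn-2 and hsf-1 were named after their values were seen. The counting steps were tried on simulated positions with known answers. Python 3.11.15, numpy 2.4.6, pandas 2.3.3, scipy 1.17.1 and matplotlib 3.10.9 were used.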

Additional observations from a re-analysis of the deposited data

How the results depend on the processing

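The count of 21 bound members was 19 with a window of 500 bp upstream to 100 bp downstream (without hsp-60 and dnj-5), 22 with 2000 and 500 bp, which adds dnj-16, and 23 with the 5′ end of any transcript, which adds hsp-90 and dnj-16. Giving each summit to the nearest 5′ end left 1 hsp and 0 cct genes. In the 920 IDR regions of highest signal the count was 8 in all, with 4 dnj, 1 cct and 1 cyn gene. Requiring both replicates' top regions, chosen after seeing the data, left 12, with 1 cct and 2 cyn genes. The top regions of 1 replicate alone gave 15 to 23 bound members, 1 to 3 cct genes and 0 to 1 pfd gene. Without replicate 1 pfd-1 and cyn-4 were added. Without replicate 2 13 of the 21 remained, and hsp-110, dnj-5, dnj-9, dnj-12, cct-1, cct-8, cyn-1 and cyn-6 were lost, while cyn-7 and cyn-10 were added. The share of member summits with ATCGAT, 19.0%, was 6.67% without replicate 2 and 12.5 to 23.8% under the other settings with that sequence, and 33.3% with ATTGAT allowed. Depth limits could not be set, since read numbers are not in the lists. No paired analysis was possible because there is 1 group.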

Other observations

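TTCNNGAA, which reads the same on both strands and resembles paired units of the element bound by heat shock factor, was searched in the 300 bp upstream of each 5′ end. It occurred at 29 of the 81 members (35.8%) and at 18.0% of all protein-coding genes. By family the counts were 12 of 22 hsp, 6 of 8 cct, 2 of 6 pfd, 4 of 16 cyn and 5 of 29 dnj genes. All 6 hsp-16 genes had 2 copies, but they lie in divergent pairs whose windows overlap, so these are 6 distinct copies. No IDR summit was listed in their windows. For the genes named hsp-16.1 and hsp-16.48, which had no region at all, near-identical copies leave this uncertain. The pair hsp-16.2 and hsp-16.41 shared a region below the threshold, with a signal of 61.2. Counted over all hsp genes there were 14 distinct copies. Of the 21 bound members 7 had it, namely hsp-1, hsp-110, dnj-12, dnj-28, cct-1, cct-7 and cyn-16. A match is a description of letters and not a site.

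Beside dnj-16 and hsp-90, the unbound members cyn-2 and hsp-12.3 had an IDR summit within 1000 bp, downstream of the window. At cyn-2 it lay 773 bp downstream of the 5′ end (signal 91.3), in an intron. At hsp-12.3 it lay 967 bp downstream (90.2), between genes.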
